A study of Caenorhabditis elegans with 22 samples.

Results

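The 38 genes described here encode the contractile apparatus of Caenorhabditis elegans body wall muscle and the structures that anchor it to the cell surface. They were matched by gene symbol from a list of muscle genes, which was drawn up with earlier results of these data known, and were followed through all 7 groups of strain and treatment in the series. All 38 symbols were found among the 19598 protein-coding genes of the count table. All 38 also passed the filter on low counts, which left 16431 genes for testing. By role, 7 belong to the thick filament, 14 to the thin filament, 3 are giant proteins of the sarcomere, 12 belong to the attachment structures and 2 are calcium channels.

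Body wall muscle moves the worm. Its obliquely striated sarcomeres hold myosin thick filaments, organised at M-lines, and actin thin filaments, anchored at dense bodies. Both structures sit on integrin complexes in the muscle membrane, which bind perlecan in the basement membrane and so pass force to the hypodermis and cuticle. Thin filaments carry tropomyosin and the troponin complex, which make contraction depend on calcium, and the calcium enters through a voltage-gated channel and leaves the sarcoplasmic reticulum through the ryanodine receptor. Many unc genes were named for uncoordinated movement in mutants and many pat genes for embryos that are paralysed and arrest.

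RNA came from whole animals, so levels are shares of the RNA of all tissues. A lower share of a transcript could reflect fewer or smaller muscle cells, less of that RNA per cell or more RNA from other tissues. These cannot be told apart in such samples, and genes said to fall here had a lower share. The strains were wild-type N2 and the mutants ser-7(vq2) and ser-5(vq1), each named for a serotonin receptor gene. All were raised in liquid on irradiated OP50, received 0.12 mM FUDR as L4 larvae, an inhibitor of DNA synthesis that sterilises worms, and were exposed from day 1 of adulthood for 72 h. N2 received DMSO (5 libraries), 5 mM serotonin (3 libraries) or 50 µM loxapine (3 libraries), an antipsychotic drug that blocks several monoamine receptors. The ser-7(vq2) mutants received DMSO (3 libraries) or serotonin (3 libraries), and the ser-5(vq1) mutants received DMSO (3 libraries) or loxapine (2 libraries). Serotonin was dissolved in water while its controls had DMSO, so the vehicle also differs in every serotonin comparison and its part was not tested.

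Libraries held 25652111 to 39765014 counts each. The ser-7 gene had 0 or 1 counts in the ser-7(vq2) libraries and 72 to 106 counts in the N2 libraries with DMSO, and ser-5 had 5 to 21 counts in the ser-5(vq1) libraries against 47 to 78. The muscle regulator hlh-1, a MyoD relative, had 450 to 834 counts in every library, and the body wall myosin genes unc-54 and myo-3 had at least 6301 and 2733 counts, so body wall muscle RNA was present throughout. Library numbers in the labels form 3 runs, called series A, B and C here, and each N2 group has at least 1 library in each. The N2 DMSO replicates 2 and 5, and 3 and 6, lie in the same series and resembled each other more than other replicates did: their chi-square per degree of freedom over genes was 5.01 for the first pair and 3.91 for the second, against 12.04 to 143 for 24 other pairs. These values exceed sampling noise, which does not show that the paired libraries are independent. All 24 other pairs join different series, so a shared series cannot be told from a shared culture. The 5 libraries were counted separately, and calls lost when the libraries of a pair were summed are named beside the results. Whether replicates came from separate cultures is not stated in the labels, and p-values therefore cover the spread between libraries, which may be technical.

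Levels are given as CPM, the count scaled to the TMM-adjusted size of its library, with the SD between libraries. Together the 38 genes took 1.01% ± 0.0546 (SD, n = 5) of all counts in N2 with DMSO. Scaled to exon length, their levels in N2 with DMSO spanned from 1217 ± 86.9 CPM per kb for unc-60, an actin depolymerising factor gene that also makes a non-muscle isoform, to 1.30 ± 0.285 for ttn-1, which encodes a titin-like giant protein (both SD, n = 5). The annotation used holds 1 transcript of unc-60, of 717 nt, so its level is too high if reads of the other isoform were counted. After unc-60 came mlc-2, a regulatory myosin light chain, at 958 ± 101 CPM per kb and pat-10, body wall troponin C, at 817 ± 53.8. The ranges of neighbours in this order mostly overlapped, and the steps from unc-60 to mlc-2, from cpn-3 to mlc-3, from unc-27 to lev-11, from unc-87 to tni-1, from pat-3 to unc-78, from unc-95 to unc-52, from unc-52 to unc-68 and from egl-19 to ttn-1 did not. Contractile genes lay at the top: the 14 highest length-scaled levels all belonged to thick or thin filament genes. The attachment genes were in the middle, from 74.9 ± 2.39 CPM per kb for pat-6 down to 8.96 ± 1.08 for unc-52. The 2 myosin heavy chains differed, with unc-54 at 136 ± 21.2 and myo-3 at 35.4 ± 10.1 CPM per kb.

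**Figure D1:**
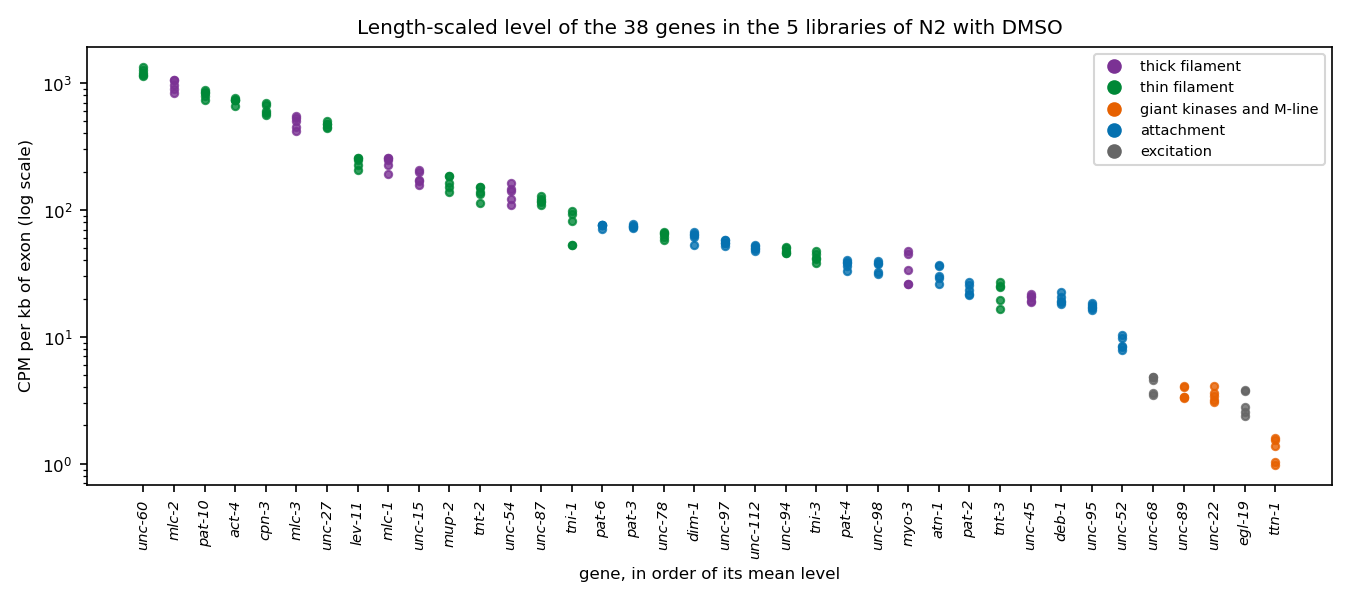
Length-scaled level of each of the 38 genes in the 5 N2 libraries with DMSO, in CPM per kb of exon on a log axis, with genes in order of their mean and coloured by role. Filament genes fill the left end, from 1217 CPM per kb for unc-60, attachment genes the middle, and giant proteins and calcium channels the right end, down to 1.30 CPM per kb for ttn-1.

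Most of these genes were lower in N2 with serotonin. Of the 38, 27 were lower than with DMSO and 0 were higher in edgeR's quasi-likelihood test at an adjusted p under 0.05, while 16.8% of all tested genes were lower and 20.4% higher. At an unadjusted p under 0.05, 27 were lower and 1 was higher, with 45.7% of all genes past that p in either direction. DESeq2 called 26 lower and 2 higher. The median log2 fold change of the 38 genes was -0.62, against -0.12 over all tested genes, and 35 of the 38 had a negative value. In 21 of the 38, every serotonin library lay below every DMSO library, which held for 15.5% of all genes. Read by role, 5 of 7 thick filament genes fell (median log2 fold change -0.82), as did 10 of 14 thin filament genes (-0.78), 3 of 3 giant proteins (-0.71) and 9 of 12 attachment genes (-0.45), while 0 of 2 calcium channels passed the test (-0.30).

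**Figure D2:**
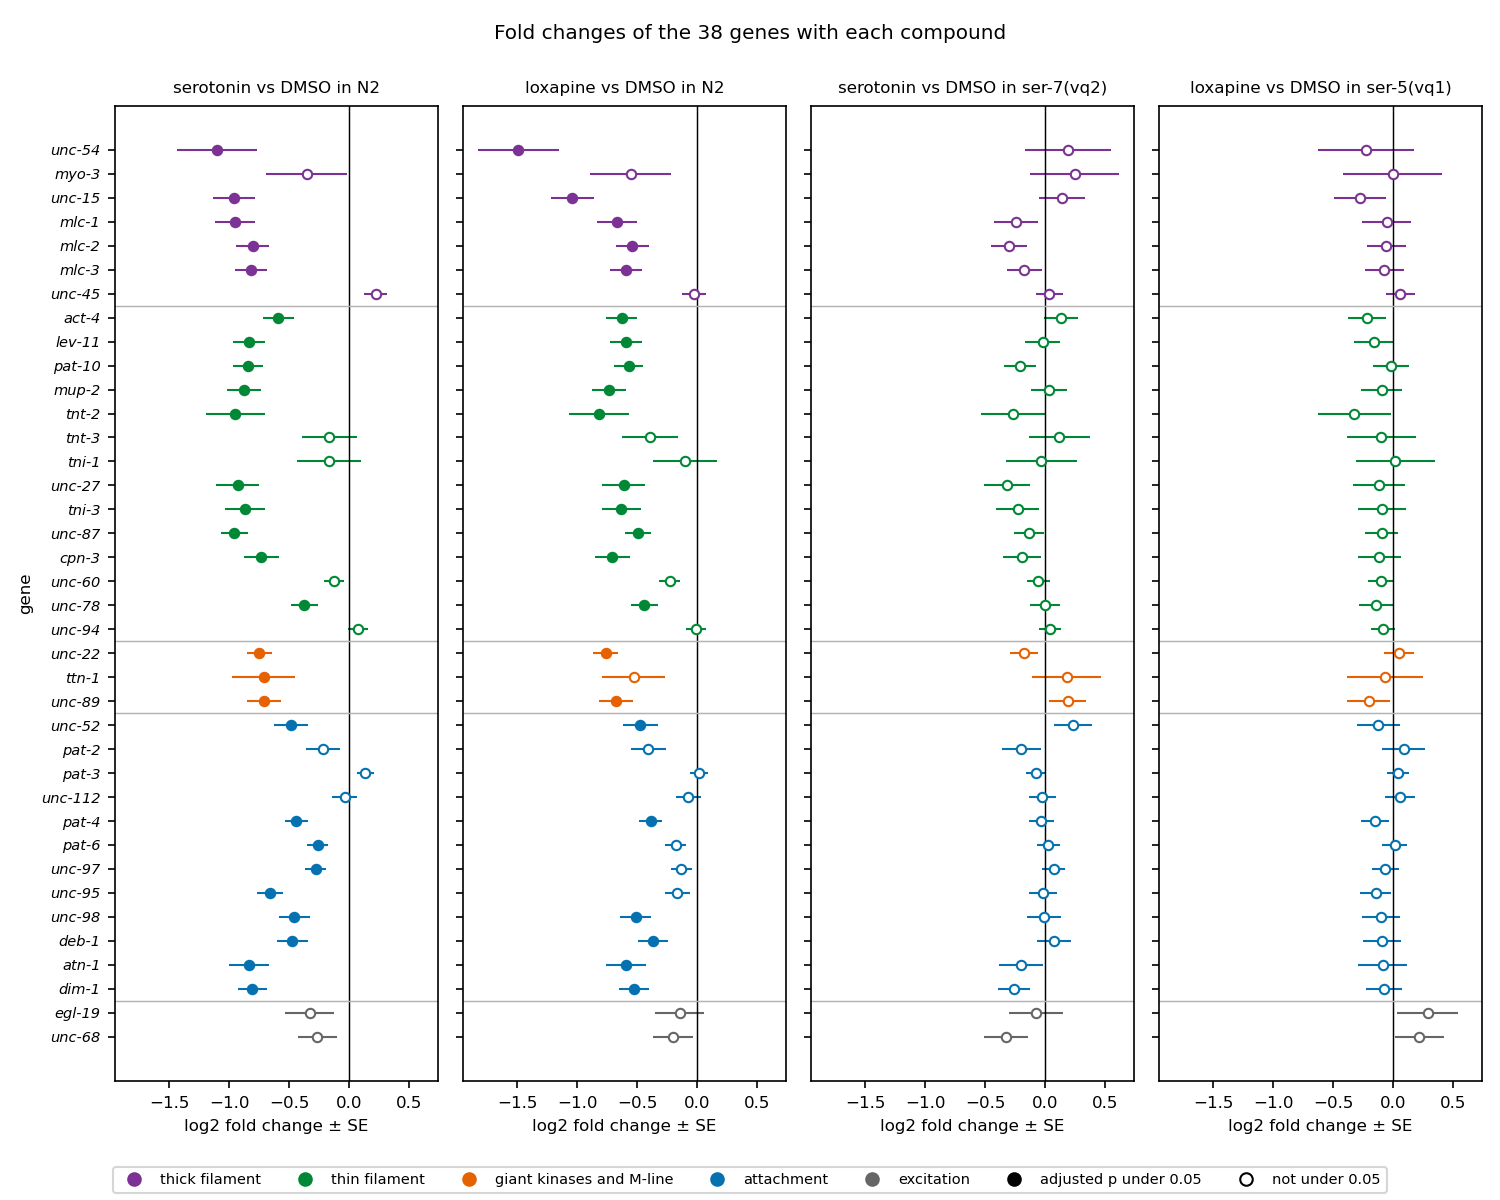
Log2 fold change with its standard error for each of the 38 genes (rows, coloured by role) for each compound against DMSO in 4 comparisons, with filled points for an adjusted p under 0.05 in edgeR. Serotonin in N2 has 27 filled points and loxapine in N2 has 23, all to the left of 0, and neither mutant comparison has any.

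The thick filament contained the largest fold change. unc-54 (chromosome I, 14855901 to 14863482 on WBcel235) encodes myosin heavy chain B, the major myosin of body wall muscle. Its level was 1006, 673, 876, 910.4 and 752 CPM in N2 DMSO replicates 2 to 6 and 468, 304 and 408 CPM in serotonin replicates 1 to 3. All 3 serotonin libraries were below all 5 DMSO libraries. The log2 fold change was -1.10 ± 0.33 (SE), with an edgeR adjusted p of 0.0149. That call was lost without serotonin replicate 2 (adjusted p = 0.0734) and when only N2 DMSO replicates 2 and 3 served as controls (adjusted p = 0.0834). myo-3, which encodes the minor myosin heavy chain A at the centre of the filament, spread widely instead: 274, 158, 203, 287 and 158 CPM with DMSO and 287, 121.5 and 98.4 CPM with serotonin. The groups overlapped, because serotonin replicate 1 was as high as the highest DMSO libraries, and the log2 fold change of -0.35 ± 0.34 did not pass the edgeR test (adjusted p = 0.44). Without serotonin replicate 1 it was -0.97 and passed (adjusted p = 0.0214).

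unc-15 (chromosome I, 7376604 to 7383197 on WBcel235) encodes paramyosin, the core of the thick filament. It lay at 704, 574, 536, 681 and 592 CPM with DMSO and at 329.8, 294 and 328 CPM with serotonin. The serotonin libraries were tightly grouped and entirely below the controls, with a log2 fold change of -0.96 ± 0.18 and an edgeR adjusted p of 0.000348. The light chain genes fell by similar amounts: 0.95 for mlc-1, 0.80 for mlc-2 and 0.82 for mlc-3 on the log2 scale. mlc-1 and mlc-2 encode near-identical regulatory light chains, so the division of reads between them is uncertain. unc-45, a chaperone that folds the myosin head, did not pass the test. Its values were 64.6, 74.4, 66.0, 72.4 and 71.2 CPM with DMSO and 74.3, 80.5 and 89.04 CPM with serotonin. The groups overlapped slightly, and the log2 fold change was 0.22 ± 0.10 (edgeR adjusted p = 0.0812). It was called higher with RLE scaling in edgeR (adjusted p = 0.0306), by DESeq2 (0.0306) and without serotonin replicate 1 (adjusted p = 0.0361).

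Among thin filament genes, unc-87 (chromosome I, 6761221 to 6767797 on WBcel235), a calponin-related protein that bundles actin, had the smallest p of the 38. Its level was 303, 274, 256, 286 and 279.8 CPM with DMSO and 120.3, 143 and 169 CPM with serotonin. The groups were far apart, with a log2 fold change of -0.96 ± 0.11 and an edgeR adjusted p of 1.19e-05. The gene is 1 of 11 of the 38 whose exons overlap another protein-coding gene, here F08B6.1. The others are mlc-1, mlc-2, act-4, unc-60, unc-94, unc-22, unc-52, pat-2, unc-112 and unc-98. The sources used here do not say how shared reads were counted. The troponin complex had genes that passed for each of its parts. Troponin C, pat-10, fell by 0.84 on the log2 scale. The troponin T genes mup-2 and tnt-2 fell by 0.87 and 0.95, and the troponin I genes unc-27 and tni-3 fell by 0.93 and 0.87. mup-2, for example, lay at 271, 238, 202, 271 and 223 CPM with DMSO and at 148, 108 and 139 CPM with serotonin, with no overlap. The remaining troponin genes did not pass: tnt-3 had a log2 fold change of -0.16 ± 0.23 and tni-1 of -0.17 ± 0.27.

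Tropomyosin, encoded by lev-11, was lower in every serotonin library, at 298, 298 and 360.2 CPM against 606, 593, 493, 613 and 540.4 CPM. Its log2 fold change was -0.84 ± 0.13 (edgeR adjusted p = 0.00012). The actin gene act-4 fell by 0.59, the calponin family gene cpn-3 by 0.73 and unc-78, whose product helps cofilin disassemble actin, by 0.37. Reads of act-4 may be shared with the near-identical genes act-1, act-2 and act-3. The unc-78 call was lost without serotonin replicate 2 (adjusted p = 0.0699) and without serotonin replicate 3 (adjusted p = 0.0895). unc-94, tropomodulin, which caps pointed ends, lay at 127, 114, 118, 125 and 114 CPM with DMSO and 129.7, 123 and 126 CPM with serotonin. The ranges overlapped, and the log2 fold change was 0.08, with a 95% interval from -0.08 to 0.24. unc-60 had a log2 fold change of -0.13 with an interval from -0.30 to 0.05, and neither of these genes passed.

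All 3 giant proteins fell. unc-22 (chromosome IV, 11972697 to 12011007 on WBcel235) encodes twitchin, a kinase along the thick filament whose loss makes muscle twitch. Its level was 95.5, 74.8, 71.0, 84.0 and 80.5 CPM with DMSO and 45.3, 44.6 and 55.3 CPM with serotonin. These groups did not overlap, and the log2 fold change was -0.75 ± 0.10 (edgeR adjusted p = 4.88e-05). unc-89, the obscurin of the M-line, lay at 104, 84.7, 86.9, 107 and 86.5 CPM with DMSO and at 72.2, 56.5 and 43.3 CPM with serotonin, a log2 fold change of -0.71 ± 0.14 (edgeR adjusted p = 0.000713). ttn-1 was less clear-cut: 85.5, 57.6, 77.0, 89.6 and 54.8 CPM with DMSO and 67.9, 35.6 and 30.1 CPM with serotonin. Its groups overlapped through serotonin replicate 1. The log2 fold change of -0.71 ± 0.26 had an edgeR adjusted p of 0.0405, and the call was lost under 9 of 17 alternatives (adjusted p from 0.00153 to 0.21). Among these were leaving out serotonin replicate 2 (adjusted p = 0.161) or 3 (0.21) and N2 DMSO replicate 2 (0.0807), 4 (0.0647) or 5 (0.0869).

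**Figure D3:**
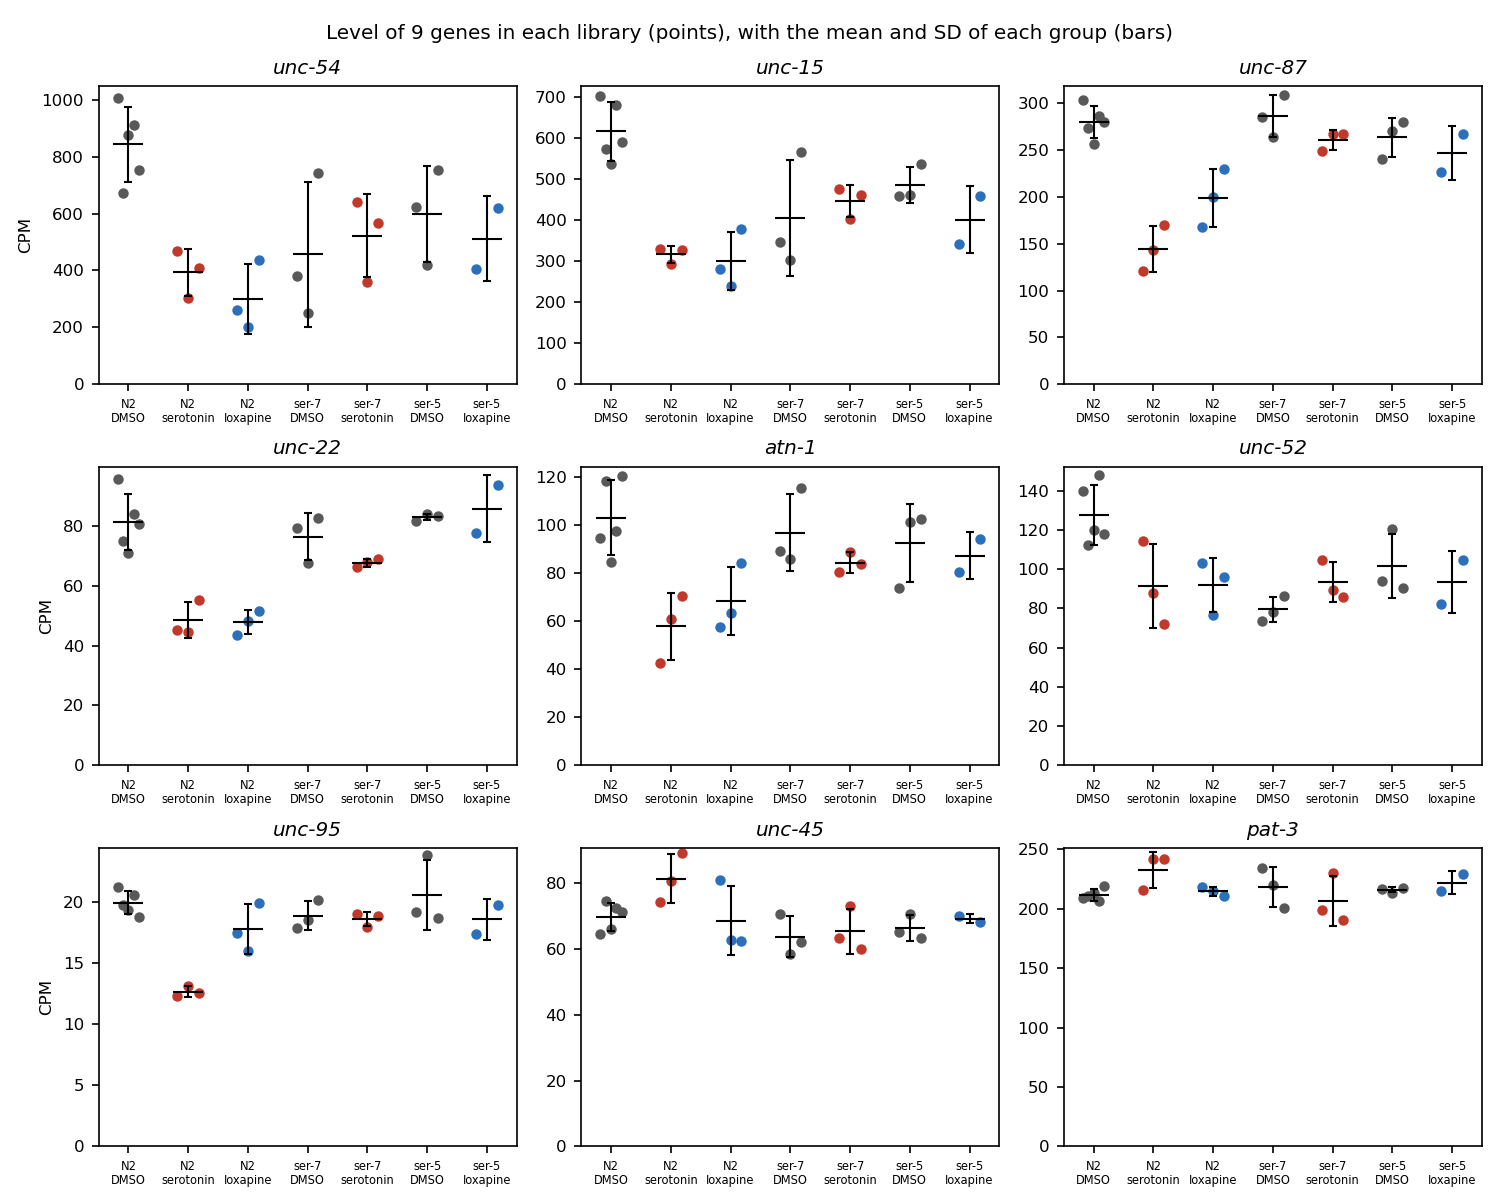
Level in CPM of 9 genes in every library (points) of the 7 groups, with the mean and SD of each group. In N2, unc-87 lies between 120.3 and 169 CPM with serotonin and between 256 and 303 CPM with DMSO, while pat-3 stays between 206 and 242 CPM in both.

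The attachment genes fell less, and their core membrane receptor did not pass the test. atn-1, α-actinin, which crosslinks thin filaments at dense bodies, changed most, from 94.9, 118, 84.5, 97.6 and 120.3 CPM with DMSO to 42.8, 60.8 and 70.3 CPM with serotonin. No serotonin library reached a DMSO library, and the log2 fold change was -0.83 ± 0.17 (edgeR adjusted p = 0.000758). dim-1, an immunoglobulin-domain protein near dense bodies, fell by 0.81 and deb-1, vinculin, by 0.47 on the log2 scale. The deb-1 call was lost without serotonin replicate 3 (adjusted p = 0.0557). unc-95, a LIM-domain protein of dense bodies and M-lines, also fell, with little spread between replicates. It lay at 21.2, 19.8, 19.3, 20.6 and 18.7 CPM with DMSO and at 12.3, 13.1 and 12.5 CPM with serotonin. The groups were separate, with a log2 fold change of -0.66 ± 0.11 (edgeR adjusted p = 0.00014).

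Neither integrin subunit passed with all libraries. pat-3, the only β integrin gene of the worm, lay at 209, 211, 214, 206 and 219 CPM with DMSO and at 215, 242 and 242 CPM with serotonin. Its ranges overlapped, and the log2 fold change of 0.14 ± 0.07 did not pass in edgeR (adjusted p = 0.154), although DESeq2 called it higher (adjusted p = 0.038). pat-2, the muscle α integrin, had a log2 fold change of -0.22 ± 0.15, which without serotonin replicate 1 was -0.42 and passed (adjusted p = 0.0256). unc-112, the kindlin that binds β integrin, lay at 131, 117, 125, 128 and 121 CPM with DMSO and at 131, 125 and 109 CPM with serotonin. These values overlapped, and its log2 fold change was -0.04 with a 95% interval from -0.24 to 0.16. pat-3 and unc-112 are also used outside body wall muscle, and RNA of whole animals does not separate tissues for any gene here. Of the integrin-linked complex below the receptor, pat-4 (integrin-linked kinase) fell by 0.44, pat-6 (parvin) by 0.26 and unc-97 (PINCH) by 0.28 on the log2 scale. The M-line and dense body protein unc-98 fell by 0.45.

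Some of these smaller changes rested on single libraries. The pat-6 and unc-97 calls were each lost under 7 of 17 alternatives. Without serotonin replicate 2 their adjusted p was 0.1 and 0.0545, and without replicate 3 it was 0.12 and 0.135. Both were also lost when paired N2 DMSO libraries were summed (0.0604 and 0.068), as was the ttn-1 call (0.0697). The unc-98 call was lost without serotonin replicate 2 (adjusted p = 0.0748). unc-52, perlecan, the basement membrane ligand of the complex, lay at 139.7, 112.4, 120.0, 148 and 118 CPM with DMSO and at 114, 87.8 and 72.0 CPM with serotonin. Serotonin replicate 1 lay within the DMSO range, and the log2 fold change was -0.48 ± 0.14 (edgeR adjusted p = 0.0123). That call was lost without serotonin replicate 3 (adjusted p = 0.101).

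The calcium channel genes did not pass. egl-19, the L-type channel of the muscle membrane, lay at 24.7, 15.4, 18.1, 24.2 and 16.5 CPM with DMSO and at 18.4, 14.6 and 14.3 CPM with serotonin, a log2 fold change of -0.33 ± 0.21 (edgeR adjusted p = 0.225). unc-68, the ryanodine receptor, lay at 78.8, 56.8, 73.9, 78.3 and 58.7 CPM with DMSO and at 68.2, 57.6 and 47.4 CPM with serotonin, a log2 fold change of -0.26 ± 0.17 (edgeR adjusted p = 0.229), and was called lower with the batch tag of the labels as a replicate block (adjusted p = 0.0354) and with the library series as a block (0.00746). Both genes overlapped between groups. In both, N2 DMSO replicates 3 and 6, of series C, were the lowest controls.

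Within each series the direction was mostly kept but its size was not. The median log2 difference of the 38 genes between serotonin and DMSO libraries of N2 was -0.21 in series A, -0.83 in series B and -0.55 in series C, against -0.02, -0.10 and -0.13 over all genes. Each series held 1 serotonin library, so these are values without a test. In all 3 series 27 genes were lower, 2 were higher and 9 were mixed, and the matching shares of all genes are not given here. The 2 that were higher throughout were unc-45 (0.17, 0.24 and 0.29) and pat-3 (0.01, 0.22 and 0.17). myo-3 was mixed, at 0.50 in series A, -1.21 in series B and -0.68 in series C. unc-87 and unc-95 were even across series, with log2 differences of -1.09, -1.04 and -0.71 for unc-87 and of -0.65, -0.67 and -0.62 for unc-95.

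**Figure D4:**
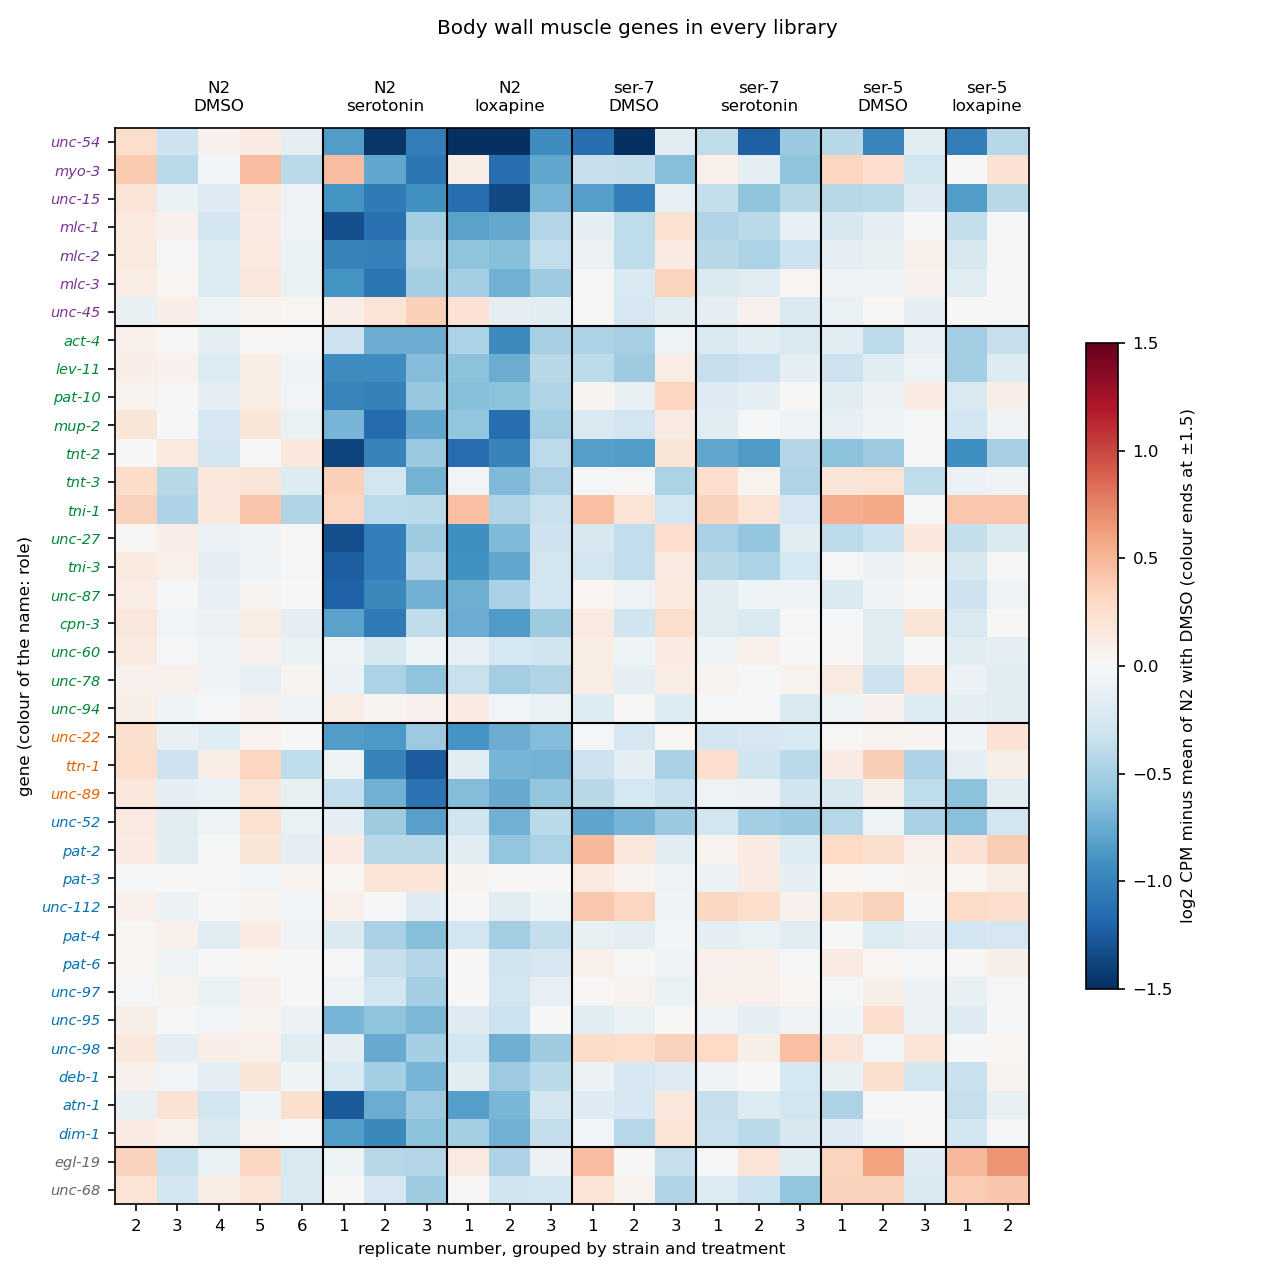
Log2 CPM of the 38 genes (rows, grouped by role and named in the colour of the role) in each of the 22 libraries (columns), minus the mean of N2 with DMSO, with blue for lower. The 6 N2 libraries with a compound are mostly blue in the filament, giant protein and dense body genes, while unc-45, unc-94 and pat-3 stay near white.

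With loxapine in N2, genes of every role but the calcium channels fell. Loxapine was compared with the same 5 DMSO libraries as serotonin, so the 2 sets of fold changes share their controls and cannot be taken as separate evidence. In all, 23 were lower and 0 higher at an edgeR adjusted p under 0.05, while 8.38% of all tested genes were lower and 10.5% higher. At an unadjusted p under 0.05, 25 were lower and 0 higher, with 33.4% of all genes past that p in either direction. DESeq2 also called 23 lower and 0 higher. The median log2 fold change was -0.52, against -0.07 over all tested genes, and 37 of the 38 values were negative. In 25 genes every loxapine library lay below every DMSO library, which held for 12.6% of all genes. The count by role was 5 of 7 thick filament genes, 10 of 14 thin filament genes, 2 of 3 giant proteins, 6 of 12 attachment genes and 0 of 2 calcium channels.

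The thick filament held the largest log2 fold change. unc-54 lay at 262, 201 and 439 CPM with loxapine, below all 5 DMSO values, with a log2 fold change of -1.49 ± 0.34 (edgeR adjusted p = 0.00849). unc-15 lay at 281, 240.5 and 379 CPM, a log2 fold change of -1.04 ± 0.18 (edgeR adjusted p = 0.00177). In both genes replicate 2 was the lowest and replicate 3 the highest. The light chains fell by 0.67 (mlc-1), 0.54 (mlc-2) and 0.59 (mlc-3) on the log2 scale. Without loxapine replicate 2 the unc-54 call (adjusted p = 0.0692) and those of mlc-1 (0.0834), mlc-2 (0.0896) and mlc-3 (0.0623) were lost, and unc-54 was also lost with only N2 DMSO replicates 2 and 3 as controls (0.0778). myo-3, at 225, 95.3 and 121 CPM, overlapped the controls, with a log2 fold change of -0.55 ± 0.34. unc-45 lay at 80.8, 62.7 and 62.3 CPM on both sides of the control range, and its log2 fold change was -0.02 with a 95% interval from -0.22 to 0.17.

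Thin filament genes that fell with loxapine included tropomyosin and 5 troponin genes. tnt-2 had the largest log2 fold change among them: 208, 229.7, 172, 203 and 231 CPM with DMSO became 94.2, 103 and 158 CPM. The groups did not overlap, but the log2 fold change of -0.82 ± 0.25 (edgeR adjusted p = 0.031) was lost under 9 of 17 alternatives (adjusted p from 9.99e-05 to 0.162). Without loxapine replicate 1 the adjusted p was 0.0961 and without replicate 2 it was 0.162. It was also lost without N2 DMSO replicate 2 (0.0566), 3 (0.0506), 5 (0.0546) or 6 (0.0505). The troponin I genes unc-27 and tni-3 fell by 0.61 and 0.63 on the log2 scale (adjusted p = 0.0231 and 0.0133). Both calls were lost without loxapine replicate 1 (0.0845 and 0.0515), without replicate 2 (0.121 and 0.104) and under each of the 3 changes to the controls (0.0545 to 0.117). unc-87 lay at 168, 199 and 229 CPM with loxapine, below all DMSO libraries, with a log2 fold change of -0.49 ± 0.11 (edgeR adjusted p = 0.007). mup-2 fell by 0.73, cpn-3 by 0.71, act-4 by 0.63, lev-11 by 0.59, pat-10 by 0.57 and unc-78 by 0.44 on the log2 scale. Without loxapine replicate 2 the calls of unc-87 (adjusted p = 0.0574), lev-11 (0.0634) and unc-78 (0.0795) were lost. unc-94, at 129.9, 116 and 111.8 CPM, overlapped its controls, with a log2 fold change of -0.01 and a 95% interval from -0.17 to 0.15.

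Of the giant proteins, unc-22 had the smallest p of the 38 with loxapine, at 43.6, 48.3 and 51.6 CPM, all below the controls (log2 fold change -0.76 ± 0.10, edgeR adjusted p = 0.000343). unc-89 fell by 0.67, and ttn-1, at 63.6, 44.1 and 43.9 CPM, did not pass (log2 fold change -0.53 ± 0.26, adjusted p = 0.162). Among attachment genes, atn-1 (0.59), dim-1 (0.53), unc-98 (0.51), unc-52 (0.47), pat-4 (0.39) and deb-1 (0.37) fell by these log2 amounts. All 6 calls were lost without loxapine replicate 2, with adjusted p from 0.0804 for dim-1 to 0.246 for deb-1. atn-1 was also lost without replicate 1 (0.0703), and unc-52 and deb-1 without replicate 3 (0.0631 and 0.141) and with the replicate block, the batch tag of the labels as a term (0.0718 and 0.0574). Leaving out N2 DMSO replicate 2 or 5 ended the calls of unc-52 (0.0674 and 0.0746) and deb-1 (0.0981 and 0.119), and leaving out replicate 3 or 6 that of deb-1 (0.0603 and 0.0575). atn-1 lay at 57.6, 63.4 and 84.4 CPM, its highest value just under the lowest DMSO value of 84.5. The α integrin pat-2 did not pass (log2 fold change -0.40 ± 0.15, adjusted p = 0.0576) but did with the replicate block (0.0216), with the library series block (0.00436), in a fit of the compared groups only (0.0283) and without loxapine replicate 1 (0.0266). pat-3, at 218, 215 and 211 CPM, was the one gene with a positive log2 fold change, 0.02, with a 95% interval from -0.13 to 0.17. unc-112 lay at 126, 111 and 118 CPM (log2 fold change -0.07, interval -0.27 to 0.13). unc-95 lay at 17.4, 15.9 and 19.9 CPM, with 1 library inside its control range and 2 below it, and did not pass (log2 fold change -0.17 ± 0.11). Both calcium channels overlapped their controls, with egl-19 at 21.4, 14.0 and 18.2 CPM and unc-68 at 69.2, 55.6 and 56.0 CPM, and their log2 fold changes were -0.15 ± 0.20 and -0.20 ± 0.17.

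The loxapine count depended on a few libraries. Without loxapine replicate 2, in which the median of the genes was lowest, 7 of 38 passed, and the 16 lost calls had adjusted p from 0.0574 to 0.246, and with only N2 DMSO replicates 2 and 3 as controls, 8 passed. With the paired N2 DMSO libraries summed 13 passed, and the calls of mlc-1, mlc-2, tnt-2, unc-27, tni-3, unc-78, unc-52, pat-4, deb-1 and atn-1 were lost, with adjusted p from 0.051 for pat-4 to 0.142 for deb-1. The genes unc-15, act-4, mup-2, cpn-3 and unc-22 were called lower under every alternative run. Within series the median log2 difference was -0.28, -0.80 and -0.36 in series A, B and C, against -0.02, -0.09 and -0.04 over all genes. Of the 38, 29 were lower in all 3, and the matching share of all genes is not given here.

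Serotonin and loxapine libraries of N2 differed from each other in 1 of the 38 genes, while 1.5% of all genes differed, 0.949% lower with serotonin and 0.548% higher. The gene was unc-95, with a log2 difference of -0.49 ± 0.12 (edgeR adjusted p = 0.0428), and its 3 serotonin libraries lay below its 3 loxapine libraries. Over all genes, 7.8% were separate in that direction and 6.8% in the other. That call was lost under 5 of 12 alternatives. These were a fit of the compared groups only (adjusted p = 0.552), RLE scaling (0.0697) and leaving out serotonin replicate 3 (0.0835) or loxapine replicate 2 (0.104) or 3 (0.202). unc-87 had a similar difference, -0.46, with a 95% interval from -0.70 to -0.22 and an adjusted p of 0.0576. Over the 38 genes the median log2 difference was -0.06. unc-87 passed with the replicate block (adjusted p = 0.0131), with the library series block (0.00523) and with no filter (0.0343). It also passed without loxapine replicate 1 (0.0142) and without serotonin replicate 3 (0.0293). The difference of unc-54 was 0.39, with a 95% interval from -0.31 to 1.09.

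In ser-7(vq2) mutants serotonin gave no call. With edgeR 0 of the 38 genes passed, as did 0% of all tested genes. At an unadjusted p under 0.05 the count was 0 of 38 and 3.91% of all genes, and DESeq2 also called 0. The median log2 fold change of the 38 genes was -0.03, and every one of the 38 overlapped between the groups, while of all genes 4.98% were separate in the lower and 5.31% in the higher direction. unc-15 lay at 347, 302 and 566 CPM with DMSO and at 477, 403 and 462 CPM with serotonin, with a log2 fold change of 0.14 and a 95% interval from -0.23 to 0.52. unc-87 lay at 285, 264 and 308 CPM with DMSO and at 248, 266 and 267 CPM with serotonin (log2 fold change -0.13, interval -0.37 to 0.11). unc-22 lay at 79.1, 67.5 and 82.4 CPM with DMSO and at 66.2, 67.7 and 68.9 CPM with serotonin (log2 fold change -0.18, interval -0.40 to 0.05). The serotonin libraries of these 3 genes were close together, and the DMSO libraries, led by replicate 3 of unc-15, were more spread. unc-54 spread most, from 250.2 to 742 CPM with DMSO and from 358 to 641 CPM with serotonin.

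Several members that fell in N2 had DMSO and serotonin libraries mixed in ser-7(vq2). tnt-2 lay at 117, 116 and 234 CPM with DMSO and at 121, 115.1 and 152 CPM with serotonin. mup-2 lay at 204, 195 and 262 CPM with DMSO and at 215, 234 and 227 CPM with serotonin. lev-11 lay at 431, 393 and 611 CPM with DMSO and at 447, 455 and 513 CPM with serotonin. In all 3 genes the highest library was DMSO replicate 3, and the other DMSO libraries lay near or below the serotonin libraries. act-4 lay at 834, 820.1 and 1103 CPM with DMSO and at 989.5, 1043 and 992 CPM with serotonin. unc-89 lay at 70.1, 77.5 and 73.8 CPM with DMSO and at 88.7, 87.6 and 76.1 CPM with serotonin. For unc-89 2 of 3 serotonin libraries were above all DMSO libraries, the opposite of the order in N2.

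Attachment genes overlapped as well. atn-1 lay at 89.3, 86.1 and 115.3 CPM with DMSO and at 80.3, 88.96 and 83.9 CPM with serotonin. unc-95 lay at 17.8, 18.5 and 20.2 CPM with DMSO and at 19.0, 18.0 and 18.9 CPM with serotonin, all above the 13.1 CPM that was its highest value with serotonin in N2. unc-52 lay at 104.8, 89.3 and 86.1 CPM with serotonin, with its DMSO values at 73.5, 78.4 and 86.6 CPM. The remaining members described per library also overlapped here. unc-45 lay at 70.6, 58.5 and 62.1 CPM with DMSO and at 63.2, 73.0 and 59.8 CPM with serotonin. unc-94 lay at 104, 121 and 104 CPM and at 119, 118 and 102 CPM, and ttn-1 at 57.7, 65.3 and 50.9 CPM and at 84.8, 58.1 and 53.9 CPM. Values of pat-3 were 234, 220.1 and 201 CPM with DMSO and 199, 230.4 and 191 CPM with serotonin, and the spread between replicates exceeded any shift. unc-112 lay at 165, 156 and 120.1 CPM and at 154, 149 and 130.3 CPM, egl-19 at 26.8, 19.6 and 15.2 CPM and at 19.1, 22.1 and 17.2 CPM, and unc-68 at 79.3, 70.9 and 50.2 CPM and at 59.5, 54.8 and 45.5 CPM. unc-68 had the lowest log2 fold change of the 38, -0.33, and myo-3 the highest, 0.25.

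The difference between strains was tested directly, as the serotonin response of ser-7(vq2) minus that of N2. Of the 38 genes, 12 had a higher (less negative) response in the mutant and 0 a lower one at an edgeR adjusted p under 0.05, with 5.65% of all tested genes higher and 9.96% lower. At an unadjusted p under 0.05, 26 were higher and 0 lower, with 30.2% of all genes past that p in either direction. DESeq2 called 11 higher and 0 lower. With the replicate block 23 passed, and the share of all genes that passed in that fit is not given here. The largest called differences on the log2 scale were those of unc-15 (1.10 ± 0.26, adjusted p = 0.00954), mup-2 (0.91 ± 0.21, 0.00854), unc-89 (0.90 ± 0.21, 0.00969), unc-87 (0.82 ± 0.17, 0.00585) and lev-11 (0.82 ± 0.20, 0.0106). The others were act-4, unc-52, mlc-3, pat-10, unc-95, unc-22 and dim-1, between 0.54 and 0.72.

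Of these 12, unc-15, lev-11, mup-2 and unc-87 passed under every alternative run. With only N2 DMSO replicates 2 and 3 as controls 4 passed. The count was 8 without N2 serotonin replicate 2 and 19 without replicate 1. Leaving out 1 library ended the call of dim-1 for 11 of the 14 libraries (adjusted p from 0.0526 to 0.123), the exceptions being N2 DMSO replicate 4, N2 serotonin replicate 3 and ser-7(vq2) DMSO replicate 3. It ended that of unc-52 for 7 libraries (0.0503 to 0.0863), mlc-3 for 6 (0.0555 to 0.0909) and pat-10 for 4 (0.0532 to 0.0597). For mlc-3 and pat-10 these were N2 serotonin replicate 2, ser-7(vq2) serotonin replicate 3 and ser-7(vq2) DMSO replicates 1 and 2, and for mlc-3 also N2 DMSO replicates 2 and 5. For unc-52 they were N2 serotonin replicates 2 and 3, N2 DMSO replicates 2 and 5, ser-7(vq2) serotonin replicate 1 and ser-7(vq2) DMSO replicates 1 and 2. With the paired N2 DMSO libraries summed, mlc-3 (0.0769), pat-10 (0.0574), unc-52 (0.0594) and dim-1 (0.11) were lost. The gene unc-54 had the largest difference of the 38, 1.29 ± 0.48, but did not pass (adjusted p = 0.0796). It passed with DESeq2 (0.0323), with a library series block (0.0391) and without ser-7(vq2) DMSO replicate 3, where the difference was 1.83 (0.0172). For unc-15, unc-52 and unc-89 the DMSO means of the strains were also apart. The ser-7(vq2) DMSO means were 405 ± 141 CPM for unc-15, 79.5 ± 6.60 CPM for unc-52 and 73.8 ± 3.69 CPM for unc-89 (SD, n = 3), against 617 ± 71.7, 128 ± 15.4 and 93.8 ± 10.8 CPM in N2 with DMSO (SD, n = 5). For unc-87 the DMSO means were close, 286 ± 22.2 CPM in ser-7(vq2) and 279 ± 17.2 CPM in N2.

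In ser-5(vq1) mutants loxapine also gave no call, with 2 libraries in the loxapine group. With edgeR 0 of 38 genes passed, against 0.0487% of all tested genes. At an unadjusted p under 0.05 the count was 0 of 38 and 1.95% of all genes, and DESeq2 also called 0. The median log2 fold change was -0.09, and 29 of the 38 values were negative. unc-15 lay at 459, 463 and 537 CPM with DMSO and at 343 and 459 CPM with loxapine (log2 fold change -0.28, 95% interval -0.70 to 0.14). unc-22 lay at 81.7, 83.8 and 83.1 CPM with DMSO and at 77.7 and 93.5 CPM with loxapine (log2 fold change 0.05, interval -0.20 to 0.30). Both overlapped between groups. The groups were separate in 2 genes: pat-4 was lower in both loxapine libraries, at 48.7 and 50.0 against 59.4, 51.5 and 53.7 CPM, and unc-68 was higher in both, at 89.2 and 91.2 against 87.002, 86.9 and 58.6 CPM. Over all genes, 7.98% were separate in the lower and 8.03% in the higher direction.

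Other members of ser-5(vq1) had the same mixture. unc-54 lay at 625, 419.8 and 751 CPM with DMSO and at 406 and 619 CPM with loxapine, a log2 fold change of -0.22 with a 95% interval from -1.01 to 0.56. tnt-2 lay at 135, 142 and 203 CPM and at 109.6 and 147 CPM, and atn-1 at 74.1, 101 and 103 CPM and at 80.4 and 94.4 CPM. In these 3 genes loxapine replicate 1 was lower than replicate 2. ttn-1 lay at 77.5, 92.1 and 51.8 CPM with DMSO and at 65.1 and 76.1 CPM with loxapine. unc-45 lay at 65.1, 70.6 and 63.2 CPM and at 70.1 and 68.2 CPM, and unc-94 at 114, 126 and 104 CPM and at 109 and 106 CPM. The pat-3 values were 216, 214 and 218 CPM with DMSO and 215 and 229 CPM with loxapine. All of these overlapped. egl-19 lay at 24.4, 29.6 and 17.0 CPM with DMSO and at 27.2 and 30.7 CPM with loxapine, the highest log2 fold change of the 38 at 0.29, and tnt-2 had the lowest at -0.32.

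The loxapine response of ser-5(vq1) minus that of N2 passed in 0 of 38 genes with edgeR and in 0 with DESeq2, while 14 of the 38 were higher at an unadjusted p under 0.05, with 9.50% of all genes past that p in either direction. The median log2 difference was 0.43, against 0.03 over all tested genes. unc-22 came closest, with a difference of 0.81, a 95% interval from 0.49 to 1.13 and an adjusted p of 0.25, and it passed when the library series was a term (adjusted p = 0.0274). Thus loxapine decreases passed the test in N2 and not in ser-5(vq1), and the difference between the strains did not pass.

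Without compound few calls were made between the mutants and N2. In ser-7(vq2) 1 of 38 genes was lower with edgeR, against 0.755% of all genes. That gene was unc-52, at 73.5, 78.4 and 86.6 CPM, below all N2 libraries, with a log2 difference of -0.68 ± 0.15 (adjusted p = 0.026). The call was lost under 8 of 17 alternatives (adjusted p from 0.000816 to 0.333), including the replicate block (0.105) and the summed N2 DMSO pairs (0.134), and without ser-7(vq2) DMSO replicate 1 (0.19) or 2 (0.114) or N2 DMSO replicate 2 (0.0532) or 5 (0.0577). unc-54 did not pass with all libraries, and without ser-7(vq2) DMSO replicate 3 it was lower by a log2 difference of -1.42 (adjusted p = 0.0379). unc-15 did not pass in the main fit either. It was called lower without that library (log2 difference -0.93, adjusted p = 0.00625), with DESeq2 (-0.60, 0.0366) and with the library series block (-0.62, 0.0256). tnt-2 was called lower with the library series block only (-0.43, 0.0277). unc-89 was also lower and unc-98 higher in every ser-7(vq2) DMSO library than in every N2 one, with log2 differences of -0.35 and 0.29 that did not pass. Over all genes, 6.63% were separate in the lower and 6.49% in the higher direction. In ser-5(vq1) 0 of 38 passed with edgeR or DESeq2, and 0.00609% of all genes passed with edgeR. At an unadjusted p under 0.05 the count was 1 of 38 and 5.40% of all genes. The median log2 difference over the 38 was -0.04. No member was separate between ser-5(vq1) and N2 with DMSO, against 3.57% of all genes in the lower and 2.08% in the higher direction.

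The decreases were not uniform within the set. Setting each library to the level of the 38 genes, instead of all genes, asks which members departed from the others in N2. This moved the median of all genes to 0.39 with serotonin and 0.40 with loxapine on the log2 scale, so that 41% and 40.9% of all genes then counted as higher and 2.79% and 1.2% as lower. With serotonin, unc-15 (-0.44 ± 0.14), unc-87 (-0.41 ± 0.14) and mup-2 (-0.36 ± 0.11) lay below the set. unc-45 (0.75 ± 0.13), pat-3 (0.67 ± 0.13), unc-94 (0.60 ± 0.12), unc-112 (0.48 ± 0.13) and unc-60 (0.40 ± 0.10) lay above it, with edgeR adjusted p from 4.98e-05 to 0.0171 over these 8 genes. With loxapine, unc-54 (-1.04 ± 0.29) and unc-15 (-0.57 ± 0.14) lay below, and pat-3, unc-94, unc-45, unc-112, unc-97 and pat-6 above, between 0.29 and 0.49. The serotonin positions of unc-15 and unc-87 were lost without serotonin replicate 1 (adjusted p = 0.0662 and 0.163) and with the replicate block (0.0628 and 0.102), and those of mup-2 and unc-112 without replicate 2 (0.0641 and 0.0535). With loxapine, leaving out replicate 2 ended unc-54 (0.0592) and unc-112 (0.0727), leaving out replicate 1 ended unc-45 (0.0706), and leaving out either ended unc-97 (0.0674 without replicate 1) and pat-6 (0.14 without replicate 1). pat-6 was also lost without N2 DMSO replicate 2 (0.0782), 3 (0.0711) or 5 (0.0674), and pat-6 and unc-97 with the replicate block (0.0813 and 0.0853). The same fit gave 0 calls among the 38 in either mutant, and of all genes 0.0548% were higher with loxapine in ser-5(vq1) and 0% higher with serotonin in ser-7(vq2). Without serotonin replicate 3 the serotonin count rose from 8 to 20, and without loxapine replicate 2 the loxapine count fell from 8 to 4 and without replicate 1 to 5.

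Ratios of length-scaled levels within a library do not depend on scaling. Several differed between N2 groups, though 0 of 48 tests passed after adjustment. The chaperone to myosin ratio, unc-45 over unc-54, was 0.153 ± 0.0324 with DMSO (SD, n = 5), 0.385 ± 0.0956 with serotonin and 0.457 ± 0.174 with loxapine (both SD, n = 3). The treated and DMSO libraries did not overlap in either comparison, and each two-sided exact permutation p was 0.0179, the smallest that 5 against 3 libraries can give. The ratio of the essential light chain mlc-3 to unc-54 was 3.66 ± 0.614 with DMSO and 7.33 ± 2.31 with loxapine, and that of unc-15 to unc-54 was 1.34 ± 0.165 and 1.89 ± 0.303, both without overlap (exact permutation p = 0.0179 each). For unc-15 the lowest loxapine ratio was 1.57 and the highest DMSO ratio 1.55. In series A, B and C the log2 differences were 1.44, 1.39 and 0.19 for mlc-3 and 0.81, 0.73 and 0.08 for unc-15. The integrin ratio, pat-2 over pat-3, was 0.320 ± 0.0392 with DMSO and 0.238 ± 0.0339 with loxapine (no overlap, exact permutation p = 0.0357). In the mutants the compound and DMSO libraries overlapped in each of these 4 ratios, and no exact permutation p there was under 0.1, the smallest their libraries can give. Other ratios were separate there. pat-10 over lev-11 was 3.81 with serotonin against 4.39 with DMSO in ser-7(vq2), and 4.18 with loxapine against 3.78 in ser-5(vq1). unc-27 over lev-11 was 1.77 with serotonin against 2.19 in ser-7(vq2). Each had an exact permutation p of 0.1, and in N2 both ratios overlapped with either compound. The DMSO libraries of ser-7(vq2) themselves had ratios of 0.302 ± 0.138 for unc-45 over unc-54, 7.82 ± 2.59 for mlc-3 over unc-54 and 1.74 ± 0.412 for unc-15 over unc-54 (SD, n = 3), which were not tested against N2. Over the 48 tests of 12 ratios in 4 comparisons, 6 had a raw p under 0.05 and 0 passed after Benjamini-Hochberg adjustment, where the smallest value was 0.214. No mutant test could pass, with a smallest possible p of 0.1. Tests in N2, limited to 0.0179, could pass only if many reached that limit together. This 0 therefore does not show that the ratios were unchanged.

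Other genes of the muscle, listed by function and tested in the same fit, are given beside the share of all genes called, 16.8% lower and 20.4% higher with serotonin and 8.38% lower and 10.5% higher with loxapine. The lists were drawn up with earlier results of these data known. Of 22 further sarcomere and attachment genes, 11 fell and 1 rose with serotonin, and 12 fell with loxapine. pfn-3, the muscle profilin, lay between 21.1 and 28.2 CPM with serotonin and between 24.5 and 33.1 CPM with loxapine, against 47.6 to 56.7 CPM with DMSO, with fold changes of 0.501 and 0.554. gsnl-1, a gelsolin-like actin-severing protein, and alp-1, a PDZ and LIM protein of dense bodies, fell by 0.79 and 0.69 with serotonin on the log2 scale. The gene that rose was the actin gene act-2 (0.26 ± 0.10, edgeR adjusted p = 0.0447), whose reads may be shared with the other actin genes. With loxapine, the paxillin gene pxl-1 fell by 0.45 and mlp-1, a muscle LIM protein, by 0.51.

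Of 26 membrane and calcium genes of muscle, 11 fell with serotonin (42.3%) and 2 with loxapine (7.69%), the latter near the 8.38% of all genes. With serotonin these included lev-10 and lev-9, which cluster acetylcholine receptors at the neuromuscular junction, and the potassium channel gene twk-18, by 0.63, 0.90 and 0.60 on the log2 scale. With loxapine they were lev-9 (by 0.70) and the calsequestrin gene csq-1 (by 0.32). The 3 muscle transcription factors gave 0 calls with either compound. hlh-1 had a mean of 20.6 ± 1.18 CPM with DMSO (SD, n = 5), 18.3 ± 2.69 with serotonin and 19.0 ± 1.76 with loxapine (both SD, n = 3). Its log2 fold changes were -0.17 ± 0.12 and -0.12 ± 0.12, and those of unc-120, the serum response factor, were -0.02 ± 0.15 and 0.30 ± 0.15.

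Of 10 genes for basement membrane proteins, which lie outside the muscle cell, 3 fell with serotonin, against 16.8% of all genes. With loxapine 4 of 10 fell, against 8.38%. RNA of whole animals does not show which cells made these transcripts. cle-1, collagen XVIII, lay between 28.2 and 31.5 CPM with serotonin, between 37.7 and 57.1 CPM with loxapine and between 76.0 and 96.5 CPM with DMSO. Neither compound group overlapped DMSO, and the log2 fold changes were -1.53 ± 0.14 and -0.93 ± 0.13. him-4, hemicentin, fell by 1.01 and 0.58, and ost-1, the SPARC protein, by 0.74 and 0.57 on the log2 scale with serotonin and loxapine. Of 9 hypodermal attachment genes, which link muscle to cuticle, 4 fell with serotonin, among them the intermediate filament gene ifb-1 (by 0.48), mua-6 (by 0.60) and pat-12 (by 0.40). With loxapine 2 of 9 fell (22.2%, against 8.38% of all genes), vab-19 (by 0.86) and let-805 (by 0.62).

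Markers of other tissues moved with these groups. With serotonin in N2, 5 of 6 pharyngeal muscle markers were lower (median log2 fold change -0.94), as were 8 of 10 neuron markers (-0.61) and 3 of 9 intestine markers (-0.32), and 14 of 15 germline and oocyte markers were higher (0.74), while 16.8% of all genes were lower and 20.4% higher. The summed level of the germline markers was 7756 to 12349 CPM with serotonin, 7272 to 8345 CPM with loxapine and 5254 to 6352 CPM with DMSO. That of pharyngeal muscle was 87.9 to 113, 137 to 174 and 185 to 268 CPM in the same order, and that of neurons 563 to 679, 579 to 699 and 727 to 907 CPM. With loxapine 11 of 15 germline markers were higher, and 2 of 6 pharyngeal muscle, 4 of 10 neuron and 0 of 9 intestine markers were lower, with 8.38% of all genes lower and 10.5% higher. Counts of the other lists were 2 lower and 1 higher of 6 hypodermis markers, 2 lower and 2 higher of 10 markers of gonad sheath and spermatheca and 0 of 3 coelomocyte markers with serotonin, and 1, 2 and 0 lower with loxapine. No marker in these lists was at 0 in any library. In ser-7(vq2) with serotonin the germline sum was 4429 to 4807 CPM, against 4304 to 5156 CPM with DMSO. The part of these shifts in the share of body wall muscle counts was not tested.

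**Figure D5:**
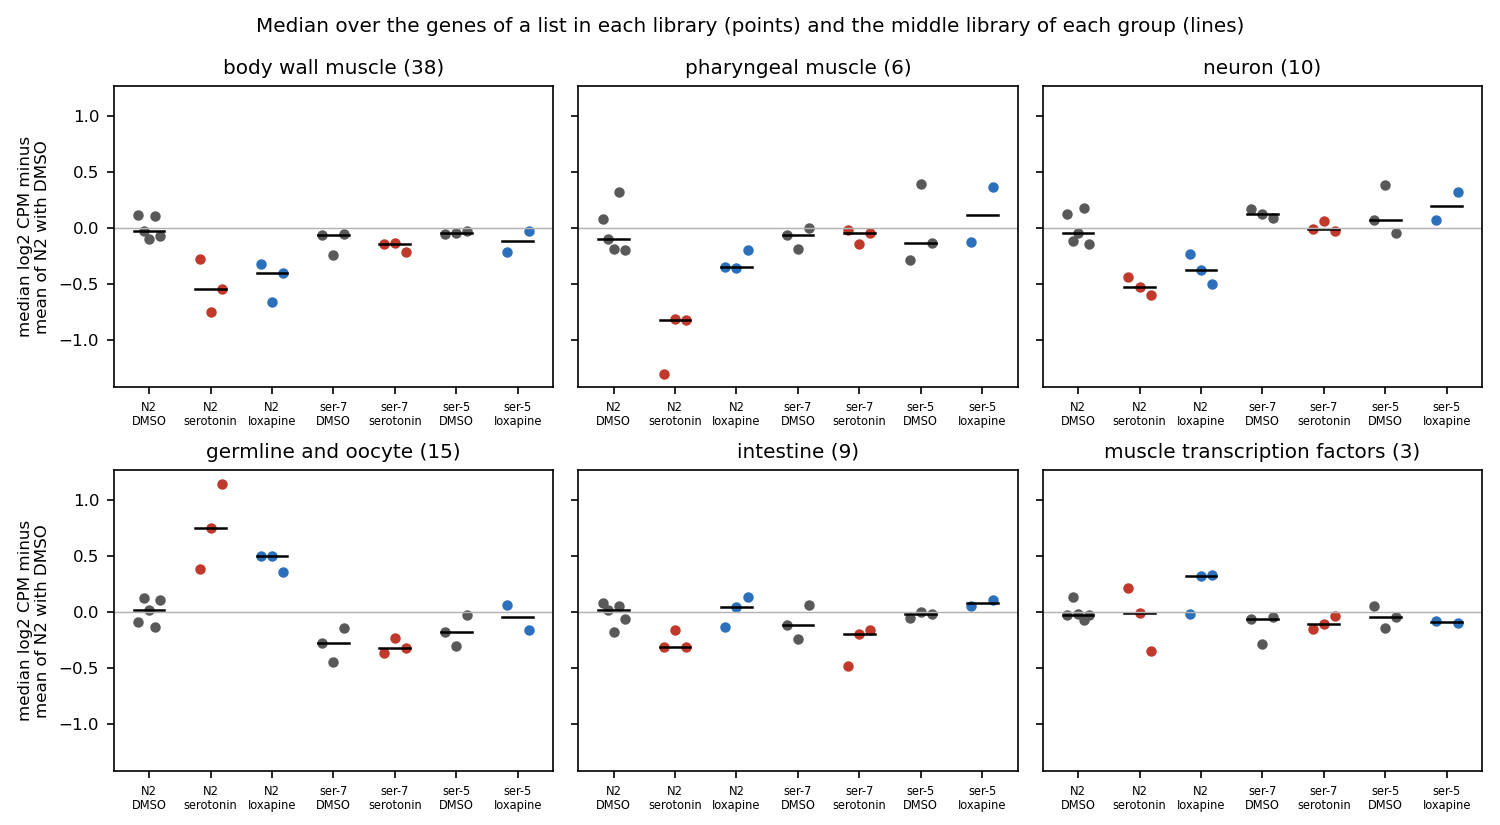
Median over the genes of a list of log2 CPM minus the mean of N2 with DMSO, for each library (points) of the 7 groups, with a line at the middle library, and the number of genes in each list in brackets. The 38 body wall muscle genes lie between -0.75 and -0.27 in the 3 N2 libraries with serotonin and between -0.66 and -0.32 in those with loxapine, while the germline and oocyte markers lie between 0.36 and 1.15 in the same 6 libraries.

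In N2 with serotonin, replicate 2 had the lowest median of the 38 genes, -0.75 on the log2 scale, and replicates 1 and 3 had -0.27 and -0.54, while the germline marker median was 0.39, 0.75 and 1.15 in replicates 1, 2 and 3. As a share of all counts the 38 genes took 0.595% to 0.682% with serotonin and 0.649% to 0.787% with loxapine in N2, against 0.951% to 1.07% with DMSO, and 0.857% to 0.889% in ser-7(vq2) with serotonin and 0.812% to 0.953% in ser-5(vq1) with loxapine. The spread between replicates also differed between members. The pooled SD within groups was 0.08 log2 units for pat-3 and 0.47 for both myo-3 and unc-54, with a median of 0.19 over the 38 genes and 0.25 over all tested genes.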

How the data were processed

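Whole-worm RNA from 22 libraries in 7 groups was read as single reads of 100 nt, per the labels. The authors deposited counts per protein-coding gene for all libraries in merged form, not normalised. The aligner, counter, strand setting and genome build were not given in the sources used here. Coordinates and exon lengths came from Ensembl release 115 (WBcel235), joined by gene identifier. The 38 genes and all gene lists were chosen with earlier results of these data known.

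Counts were filtered with filterByExpr (minimum count 10, minimum total 15), scaled by TMM and fitted in edgeR 4.0.16 (R 4.3.3, limma 3.58.1) with 1 mean per group over all 22 libraries and the robust quasi-likelihood test. P-values were adjusted by Benjamini-Hochberg over all 16431 tested genes, with a threshold of 0.05. Standard errors were derived from the log2 fold change and the F statistic of that fit. The 95% intervals are 1.96 standard errors to each side. They use a normal quantile, so they are approximate and may be too narrow. Differences between strains in a response were contrasts of the same fit. Levels are CPM of TMM-scaled counts, and log2 CPM used a prior count of 2. Ratios between genes were tested by two-sided exact permutation tests on log2 values. The tests across genes were also run on simulated counts. These were drawn independently for each library without differences between series, so that run does not cover related libraries. Values per library were given for the members with the largest and smallest absolute log2 fold change of each role with either compound in N2, those against the median direction and up to 8 called in each other comparison, and of related lists up to 3 genes per direction by adjusted p. Values of further members, such as myo-3, were added after being seen. The alternatives were DESeq2 1.42.0, RLE scaling, no filter, a fit of the compared groups only, blocks for the batch tag or library series, summed or subset N2 DMSO controls, and leaving out each library.

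The batch tag equals the replicate number and so pairs libraries by the labels. Deviations from group means correlated at a median r of 0.23 over 51 pairs with the same tag (range -0.10 to 0.65) and 0.25 over 68 pairs of the same library series, against -0.13 over 137 pairs of different series. Tags 4, 5 and 6 occur only in N2 with DMSO, so those libraries carry no weight in the block. Depth ran from 25652111 to 39765014 counts, and every member had counts in every library.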

Additional observations from a re-analysis of the deposited data

Results flagged for a closer look

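N2 DMSO replicate 3 stood apart in 1 of the 38 genes examined over the 5 N2 libraries with DMSO. pat-6, parvin, lay at 89.1 CPM in replicate 3 and between 94.9 and 96.5 CPM in the other libraries. Chance flags about 1 in 20 such groups.

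The serotonin response differed between ser-7(vq2) and N2, in the edgeR test of the difference, in 12 genes. On the log2 scale the difference, ser-7(vq2) minus N2, was 1.10 for unc-15, 0.91 for mup-2, 0.90 for unc-89, 0.82 for unc-87 and 0.82 for lev-11. It was 0.72 for act-4 and 0.72 for unc-52, 0.64 for mlc-3, 0.64 for pat-10 and 0.64 for unc-95, 0.57 for unc-22 and 0.54 for dim-1. N2 and ser-7(vq2) had separate DMSO controls in this comparison.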

How the results depend on the processing

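With serotonin in N2 the count of 27 called genes stayed between 21 and 28 under the alternatives that kept all libraries or changed the controls, and between 21 and 30 when 1 library was left out. No called gene changed direction under these alternatives. Of the 27, 19 passed under each of 17 alternatives. With loxapine in N2 the count of 23 became 13 with N2 DMSO libraries of 1 series summed, 8 with replicates 2 and 3 alone and 12 with replicates 4 to 6 alone, and 7 to 23 when 1 library was left out, 7 being without loxapine replicate 2. For the difference in serotonin response between ser-7(vq2) and N2, the count of 12 became 23 with the replicate block, 27 with a library series block, 4 with N2 DMSO replicates 2 and 3 alone, and 8 to 19 when 1 library was left out. For the ser-5(vq1) difference in loxapine response it was 0, 1 with a library series block, and 0 to 0 without 1 library. For ser-7(vq2) against N2 with DMSO, the count of 1 became 2 with DESeq2, 3 with a library series block, 0 with the replicate block, 0 with each of the 3 changes to the controls, and 0 to 3 when 1 library was left out (0 without N2 DMSO replicate 2 or 5 or ser-7(vq2) DMSO replicate 1 or 2, and 3 without ser-7(vq2) DMSO replicate 3). For serotonin against loxapine in N2, the count of 1 became 0 with the compared groups only, 0 with RLE scaling, 2 with a library series block, 2 with the replicate block, 2 with no filter, and 0 to 3 when 1 library was left out (3 without loxapine replicate 1). Relative to the 38 genes, 6 to 20 departed with serotonin and 4 to 10 with loxapine when 1 library was left out. Serotonin in ser-7(vq2) and loxapine in ser-5(vq1) gave 0 under all alternatives run. The block changed no other count by over 1.5 times. Counts over all genes under these alternatives are not given here, and the cause of these shifts was not tested. A group of 2 or 3 libraries limits what can be resolved, above all for unc-54 and myo-3.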
